A study of Homo sapiens with 8 samples.

Results

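The 10 genes described here are GAS5, SNHG1, SNHG3, SNHG5, SNHG6, SNHG7, SNHG8, SNHG9, SNHG12 and ZFAS1, noncoding genes whose introns carry small nucleolar RNAs (snoRNAs). They were chosen by name from 23621 gene rows, with earlier results of these data known. All 10 passed the filter on low values (a mean of at least 1 on the spike-in scale). All cells were NALM6, an established human B-cell precursor leukemia line, with an HMGN1 transgene that doxycycline (DOX) switches on. HMGN1 is a nucleosome-binding protein, and the series title concerns its effect on transcription as a whole. The transgene was wild-type HMGN1 (WT) or the S20,24E mutant (SE), which lacks nucleosome binding. Cells of each kind were kept for 6 hours with vehicle or with DOX at 100 ng/ml, which gives 4 groups (WT vehicle, WT DOX, SE vehicle, SE DOX) of 2 libraries, labelled biological replicates A and B. Poly(A) RNA from equal numbers of cells was sequenced with ERCC spike-ins, synthetic RNAs added in equal amount to each sample. The labels do not say how cultures A and B were kept apart, nor whether a line is 1 clone, so p-values measure the spread between these libraries.

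A snoRNA host transcript is spliced, the snoRNAs are cut out of its introns, and the joined exons leave the nucleus. Many such hosts, GAS5 among them, are 5′ terminal oligopyrimidine (TOP) RNAs: like the mRNAs of ribosomal proteins, their transcripts start with a cytosine followed by a run of pyrimidines, which couples their translation to growth signals. Ribosomes read short frames in their exons, and nonsense-mediated decay then removes the transcript. For that reason GAS5, named for its accumulation in growth-arrested cells, builds up when translation slows. These RNAs are therefore read in cells as a pair of signals, transcription of the host and decay of its exons, which a level alone does not separate.

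The start of each transcript is the sequence that defines the TOP class, so the 40 bases around it are shown, 20 before the annotated start and 20 from it on, from the RefSeq promoter table (GRCh38.p14). Capitals mark a C that opens an unbroken run of at least 5 pyrimidines, on the transcribed strand, within 5 bases of the start.
SNHG5: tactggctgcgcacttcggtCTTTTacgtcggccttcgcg
ZFAS1: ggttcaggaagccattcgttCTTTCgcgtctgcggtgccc
SNHG8: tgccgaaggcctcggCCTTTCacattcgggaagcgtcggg
SNHG7: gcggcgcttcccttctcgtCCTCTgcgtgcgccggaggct
SNHG12: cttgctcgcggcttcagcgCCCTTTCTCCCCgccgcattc
GAS5: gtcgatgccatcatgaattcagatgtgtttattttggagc
SNHG1: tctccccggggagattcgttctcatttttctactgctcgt
SNHG3: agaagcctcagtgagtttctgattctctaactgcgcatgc

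Starts of 8 of the 10 genes were examined, SNHG6 and SNHG9 not among them, and 5 of these 8 had such a run (62.5%). Host starts on chromosome 8 were left out, which was not done for the shares that follow. Among all 35116 promoters of the table the share was 21.1%, and among 63 ribosomal protein promoters it was 81%. In SNHG5 and ZFAS1 the C that opens the run lay exactly at the annotated start, with pyrimidines also directly before it. In SNHG8 the run of 6 bases began 5 bases before the annotated start. SNHG12 had the longest run of the 8, 12 bases. GAS5, SNHG1 and SNHG3 had no such run at the single start listed for each, and other starts of these genes were not searched. The windows lie at chr6:85678714-85678753 (SNHG5, minus strand), chr20:49278622-49278661 (ZFAS1, plus strand), chr4:118278742-118278781 (SNHG8, plus strand), chr9:136728165-136728204 (SNHG7, minus strand), chr1:28581854-28581893 (SNHG12, minus strand), chr1:173869026-173869065 (GAS5, minus strand), chr11:62855866-62855905 (SNHG1, minus strand) and chr1:28505923-28505962 (SNHG3, plus strand).

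Levels are given on a pair of scales. Unnormalized FPKM, a fragment count divided by transcript length and by the fragments mapped in that library, gives a gene's share of its library. The authors' normalized FPKM, called the spike-in scale below, has nearly equal spike-in sums across libraries (7050 to 7166, against 5675 to 10040 unnormalized). It therefore also carries differences in RNA per cell or in the amounts of cells and spike-ins used, which cannot be told apart here. The files hold no counts, so the depth is unknown. All 15 B-lineage markers were above the minimum, while 0 of 7 T-cell and 0 of 5 erythroid markers were. The HMGN1 row did not rise with the DOX label: it ran from 792.9 to 809.2 unnormalized FPKM in the 4 WT libraries and from 1061 to 1427 in the 4 SE libraries. Each DOX comparison below therefore compares libraries by their label. The 2 WT replicate A libraries stood apart from the rest for several of the 10 genes, and the main values that rest on them are given with and without them.

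The hosts were abundant RNAs in NALM6. SNHG8 had the highest median over the 8 libraries, 531.9 unnormalized FPKM, above 98.62% of the genes tested, and SNHG12 the lowest, 62.76, still above 87.38%. The order of the medians was SNHG8, SNHG5 (377.9), GAS5 (335.6), SNHG6 (329.3), ZFAS1 (222.3), SNHG1 (197.8), SNHG7 (118.4), SNHG9 (117.2), SNHG3 (82.72) and SNHG12. SNHG8 was above SNHG5 in 8 of 8 libraries, and most other neighbours in this order kept it in 7 or 8. GAS5 and SNHG6 are not separated by their spread, since GAS5 was the higher in 5 of 8 libraries, and neither are SNHG7 and SNHG9 (4 of 8).

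**Figure D1:**
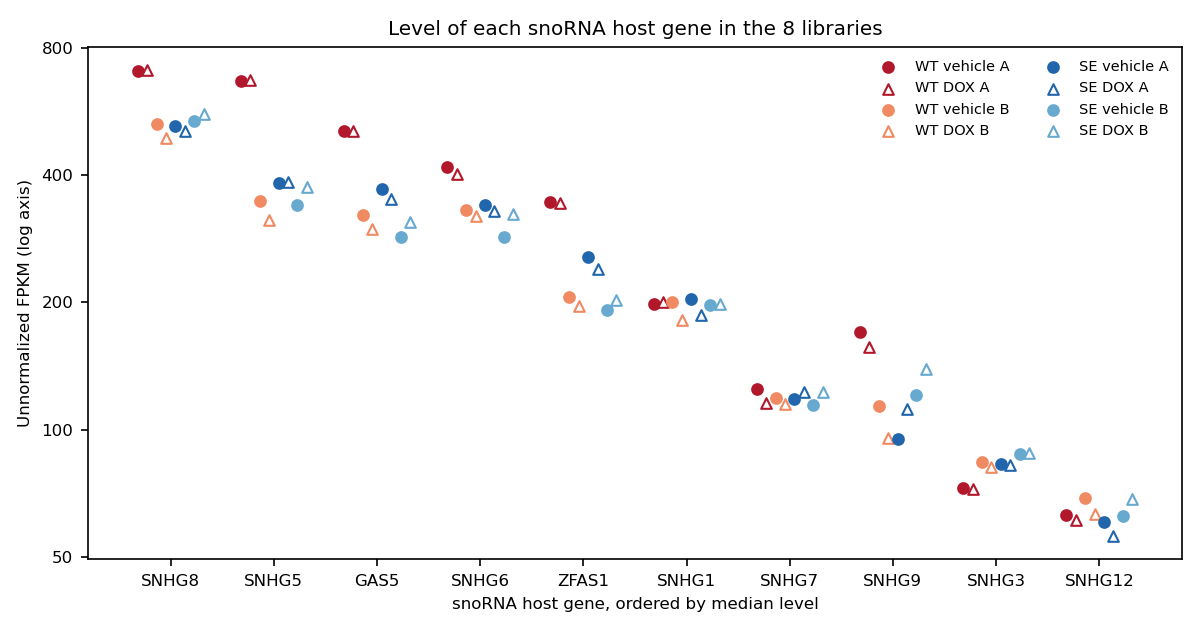
Unnormalized FPKM (log axis) of the 10 snoRNA host genes, ordered by median, with 1 point per library (filled circles vehicle, open triangles DOX; colours give construct and replicate letter). Both WT replicate A points lie above the other 6 for SNHG8, SNHG5, GAS5, SNHG6, ZFAS1 and SNHG9, while SNHG1 and SNHG7 barely vary and SNHG3 is lowest in those 2 libraries.

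Over the 8 libraries the 10 genes divided into a variable and a steady set. SNHG5 varied most, with its highest library 2.131 times its lowest, followed by ZFAS1 (1.798), SNHG9 (1.788) and GAS5 (1.777). SNHG7 (1.091), SNHG1 (1.123), SNHG3 (1.213) and SNHG12 (1.23) varied least. SNHG6 (1.469) and SNHG8 (1.447) lay between. Without the 2 WT replicate A libraries the sets overlapped: the ratio was 1.467 for SNHG9, 1.332 for ZFAS1, 1.295 for GAS5 and 1.229 for SNHG5, beside 1.23 for SNHG12, 1.138 for SNHG8 and 1.07 for SNHG7. The 3 members with no pyrimidine run at the listed start were found in both sets. Of the 5 that have it, SNHG5 and ZFAS1 were variable, SNHG7 and SNHG12 were steady and SNHG8 lay between.

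The variable set was set apart by WT replicate A. SNHG5, a host of the SNORD50 box C/D snoRNAs, stood at 666 unnormalized FPKM in WT vehicle A and 669 in WT DOX A, against 346.3 in WT vehicle B and 313.9 in WT DOX B. In the SE libraries SNHG5 stood at 382 (vehicle A), 385.8 (DOX A), 340.2 (vehicle B) and 373.9 (DOX B). So both WT replicate A libraries lay far above a band that holds the other 6, with and without DOX.

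GAS5, whose introns carry a cluster of box C/D snoRNAs, gave 508.3 (vehicle) and 507.8 (DOX) unnormalized FPKM in WT replicate A and 321.1 and 298.1 in WT replicate B. In SE cells GAS5 gave 370.4 and 350.1 in replicate A and 286.1 and 310.1 in replicate B. The 2 WT replicate A libraries were again the highest, and the SE replicate A libraries came next. ZFAS1, the SNORD12 host that lies antisense to ZNFX1, had the same order, with 345.5 and 342.9 in WT replicate A, 205.4 and 196.6 in WT replicate B, 256 and 239.2 in SE replicate A and 192.2 and 202.1 in SE replicate B.

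SNHG8, SNHG6 and SNHG9 each host few snoRNAs. SNHG8 gave 704.6 (vehicle) and 707.1 (DOX) in WT replicate A and 488.7 to 556.3 unnormalized FPKM in the other 6 libraries. SNHG6 gave 418.3 and 401.8 in WT replicate A and 284.8 to 340.2 elsewhere. SNHG9, which lies beside the ribosomal protein gene RPS2, gave 169.9 and 157.2 in WT replicate A and 95.06 to 139.4 elsewhere. None of these 3 genes overlapped between the 2 WT replicate A libraries and the rest.

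The steady set did not share this. SNHG1, a host of a long row of box C/D snoRNAs, gave 197.9 and 200.6 unnormalized FPKM in WT replicate A, inside its range of 181.3 to 203.5. SNHG7 gave 125.1 and 115.8 there and 114.7 to 122.6 elsewhere, so 1 of the 2 lay inside that range. SNHG12 gave 63.02 and 61.3, inside 56.15 to 69.09. SNHG3, which shares its locus with RCC1, was the exception in direction: its 72.92 and 72.57 in WT replicate A were under its lowest value elsewhere, 81.6.

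In all, 6 of the 10 hosts were higher in both WT replicate A libraries than in each of the other 6, against 24.1% of the 11340 genes tested on that scale. By the stricter measure of at least 1.5-fold above replicate B in both vehicle and DOX, 3 of 10 qualified (GAS5, SNHG5 and ZFAS1), against 1.78% of genes. The log2 ratios in vehicle and DOX were 0.94 and 1.09 for SNHG5, 0.75 and 0.80 for ZFAS1 and 0.66 and 0.77 for GAS5. SNHG9 missed the 1.5-fold limit in vehicle (0.58) and passed it in DOX (0.72). The comparison of replicate letters was added after these values had been seen.

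On the spike-in scale limma tested this difference with the vehicle and DOX libraries of a letter as its replicates. There 6 of 10 hosts were higher in WT replicate A and 0 were lower, against 11.4% of genes higher and 1.15% lower. The largest difference was that of SNHG5, a log2 fold change of 1.25 (SE 0.17, limma adjusted p = 3.8e-06). ZFAS1 differed by 1.01 (SE 0.18, limma adjusted p = 0.00015), GAS5 by 0.95 (SE 0.18, adjusted p = 0.00036) and SNHG9 by 0.88 (SE 0.17, adjusted p = 0.00058). SNHG8 (0.71, adjusted p = 0.0063) and SNHG6 (0.57, adjusted p = 0.029) completed the 6.

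The other 4 had log2 fold changes of 0.30 (SNHG1), 0.27 (SNHG7), 0.14 (SNHG12) and 0.04 (SNHG3), with adjusted p from 0.26 to 0.86. The members' median was 0.64, beside 0.22 over all genes tested, a shift of these libraries as a whole on this scale. After the libraries were set to equal medians, which removes that shift, the same 6 hosts were called higher and SNHG3 was called lower (-0.17, adjusted p = 0.0018), against 23.5% of genes higher and 20.1% lower. SNHG5, ZFAS1 and GAS5 were called with any 1 of the 4 WT libraries left out, by limma on the spike-in scale. SNHG8 and SNHG6 lost the call whichever of the 4 was left out (lowest adjusted p = 0.056 for SNHG8 and 0.20 for SNHG6), and SNHG9 lost it without WT DOX replicate B (adjusted p = 0.086).

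The test covers the spread between libraries of 1 replicate letter, and there is 1 culture letter on each side, so culture and library preparation cannot be told apart here. Levels of other classes of RNA moved with the hosts in the same libraries. LYZ, a myeloid marker, was at 4.62 and 3.963 unnormalized FPKM in WT replicate A and 1.22 to 1.701 elsewhere. MPO, at 0.0167 and 0.01 there and 0.0137 to 0.188 elsewhere, and CD14, at 0.2096 and 0.2564 there and 0.2024 to 0.3922 elsewhere, were not higher in WT replicate A. The summed level of the 8 myeloid markers was 4.267 to 4.864 in WT replicate A, 1.822 to 1.954 in WT replicate B and 1.541 to 2.302 in SE, most of it LYZ. ELANE, S100A8 and S100A9 were listed at 0 in all 8 libraries, and CSF3R in 7. The summed B-lineage level was 2985 to 3000 in WT replicate A, 3129 to 3166 in WT replicate B and 2673 to 3084 in SE. Of the 15 B-lineage markers, BLNK was called higher (0.78, limma adjusted p = 0.0018) and DNTT lower (-0.62, adjusted p = 0.017) in WT replicate A, and with equal library medians 4 were higher and 7 lower. DNTT stood at 129.8 in both WT replicate A libraries and at 230.8 to 281.2 elsewhere. Their part in the result was not tested.

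Most ribosomal protein mRNAs, the classic TOP mRNAs, were also higher in WT replicate A. Of 78 cytosolic ribosomal protein mRNAs, 76 were higher in both WT replicate A libraries than in the other 6, against 24.1% of all genes. limma called 51 higher and 0 lower, against 11.4% and 1.15% of all genes, with a median log2 fold change of 0.52. Among the 3 most abundant, RPL41 (0.64, adjusted p = 0.0075) and RPS18 (0.65, adjusted p = 0.0060) were called, and RPS27 (0.42, adjusted p = 0.089) was not. RPL13A, a ribosomal protein mRNA whose introns also carry box C/D snoRNAs, was the only one at least 1.5-fold up in both treatments. It stood at 891.3 and 911.5 unnormalized FPKM in WT replicate A and at 470.9 to 511.5 elsewhere.

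Among 22 translation factor and other TOP mRNAs, 8 were called higher and 0 lower, with a median of 0.44, against 11.4% of all genes higher and 1.15% lower. The 8 were EEF2 and EEF1G, which act in elongation, NACA, which binds nascent chains, and the initiation factors EIF3E, EIF3F, EIF3H, EIF3L and EIF4B, with log2 fold changes of 0.51 (NACA) to 0.75 (EIF3E). The 3 most abundant of this list were not called: TPT1 (0.36), EEF1A1 (0.40) and NPM1 (0.30).

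Of 24 protein-coding snoRNA hosts, 1 was called higher (EEF2, 0.68) and 0 lower, with a median of 0.24 beside 0.22 over all genes. Against the 11.4% of all genes called higher, this count does not set the list apart. The chaperone HSPA8, the most abundant of them, had a log2 fold change of 0.01, and the ribosomal scaffold GNB2L1 one of 0.39, not called. Of 9 other noncoding hosts, 3 were called higher, against the same 11.4%: C6orf48 (0.71, adjusted p = 0.0066), EPB41L4A-AS1 (0.67, adjusted p = 0.0042) and C17orf76-AS1 (0.66, adjusted p = 0.0090). C17orf76-AS1 was the most abundant, with 1019 and 991.8 unnormalized FPKM in WT replicate A and 717.5 to 803.9 elsewhere. DANCR, also among the most abundant, had 0.31 and was not called.

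The counts for the machinery around these RNAs are read against the same shares of all genes, 11.4% higher and 1.15% lower, and in lists this short none stands apart from them. Of 14 factors of nonsense-mediated and 5′-to-3′ decay, 0 were called in either direction (median 0.18), with SMG5 at 0.42 and UPF1 at 0.31. Of 10 regulators of TOP translation 0 were called (median 0.17), with CNBP at 0.21, EIF4EBP1 at 0.03 and LARP1, which binds the TOP start, at 0.14. Of 15 snoRNP proteins and assembly factors 1 was called higher, the assembly factor ZNHIT3 (0.55, adjusted p = 0.025). The abundant snoRNP proteins FBL (0.29), NHP2 (0.27) and NOP10 (0.31) were not called. Beside the loci of the 10 hosts, 1 of 7 tested neighbours was called, RPS2 next to SNHG9 (0.66, adjusted p = 0.0066). ZNFX1, the antisense partner of ZFAS1, was at 10.93 to 11.86 unnormalized FPKM in all 8 libraries, so its own level did not follow that of ZFAS1, although a kit not known to mark strand cannot separate the 2 where they overlap. RCC1, beside SNHG3, had 0.17 and was not called.

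With equal library medians more genes passed the same test, 23.5% of all genes higher and 20.1% lower, and the counts of the protein-coding hosts and the neighbours are near these shares. The ribosomal protein mRNAs then had 73 of 78 higher and 0 lower (median 0.30), the translation factor and other TOP mRNAs 17 of 22 higher and 1 lower (0.23), and the other noncoding hosts 4 of 9 higher and 0 lower (0.15). The protein-coding hosts divided into 8 higher and 6 lower of 24 (median 0.02) and the decay factors into 6 higher and 1 lower of 14 (-0.04). The TOP regulators had 0 higher and 5 lower of 10 (-0.04), the snoRNP list 1 higher and 1 lower of 15 (0.03) and the neighbours 2 higher and 1 lower of 7 (0.05). The median of the 10 hosts on that scale, 0.42, was above that of each of these lists, and that of all genes was 0.00.

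**Figure D2:**
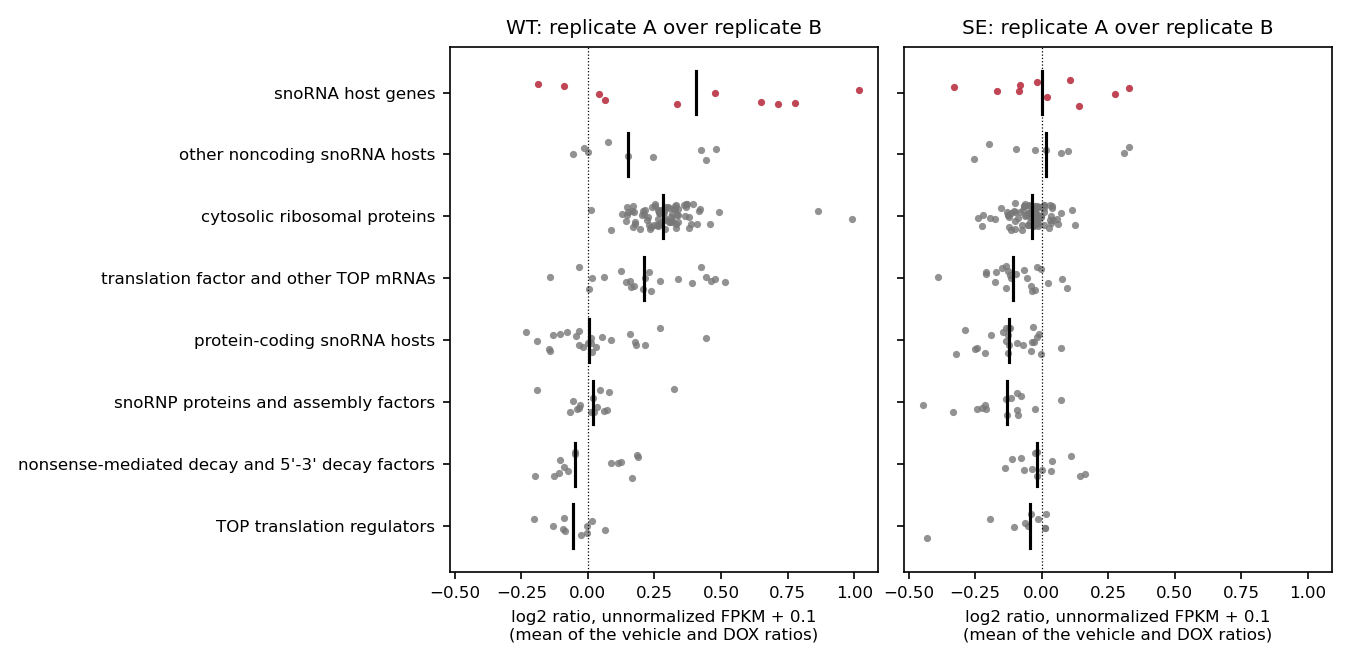
Log2 ratio of replicate A over replicate B (unnormalized FPKM + 0.1, mean of the vehicle and DOX ratios) for each tested gene of 8 lists, WT cells on the left and SE cells on the right, with list medians as black bars and the host genes in red. In WT cells 4 hosts (SNHG5, ZFAS1, GAS5 and SNHG9) exceed every gene of the other noncoding host list and all ribosomal protein mRNAs but 2 at most, RPL13A and RPL21, and in SE cells the hosts spread around 0.

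In SE cells the same letters gave a different picture. The members' median log2 ratio of replicate A over B, on unnormalized FPKM, was 0.04 in vehicle and -0.04 in DOX, beside 0.38 and 0.43 in WT cells, with medians over all genes between -0.02 and 0.00 in each. ZFAS1 (0.41 and 0.24) and GAS5 (0.37 and 0.18) had the highest ratios in SE cells. SNHG9, high in WT replicate A, had ratios of -0.34 and -0.31 in SE cells. No host reached 1.5-fold in both SE treatments. The difference between WT and SE in these ratios was not tested.

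Several pairs of hosts followed each other over the 8 libraries, which is given as a description, since the libraries share their scaling and 2 of them stand apart. On log2 unnormalized FPKM, Pearson's r was 0.995 between GAS5 and ZFAS1, 0.970 between GAS5 and SNHG5 and 0.966 between SNHG5 and SNHG8. SNHG3 ran against them (r = -0.931 with GAS5), and SNHG1 stood outside (r = 0.363 with GAS5). Over the 6 libraries without WT replicate A, r was 0.978 between GAS5 and ZFAS1, 0.757 between GAS5 and SNHG5, 0.440 between SNHG5 and SNHG8, -0.482 between GAS5 and SNHG3 and 0.272 between GAS5 and SNHG1. Of these pairs, only GAS5 and ZFAS1 kept an r above 0.9. The 5 genes most like the mean of the 10 hosts were TOMM7 (r = 0.999), a subunit of the mitochondrial import pore, TMED9 (0.989), ABCA7 (0.989), RPL26 (0.985) and RPS18 (0.984). Without WT replicate A the same 5 had r of 0.985, 0.928, 0.931, 0.824 and 0.814. The 5 were picked for their r over all 8 libraries, these 6 included. The second set of r is therefore no separate test of whether they follow the hosts. TOMM7 stood at 147.6 and 144.4 unnormalized FPKM in WT replicate A and at 114.8 to 124.7 elsewhere. ABCA7, a lipid transporter gene, stood at 2.459 and 2.42 in WT replicate A and at 1.391 to 1.586 elsewhere.

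The first planned question was whether DOX changed the hosts in WT cells. No host was called: 0 of 10, against 0.0698% of all genes (8 of 11465 by limma, with 37 at an unadjusted p under 0.05). All 10 estimates were slightly below 0, with a median log2 fold change of -0.09 beside -0.03 over all genes. GAS5 was at 641.4 (A) and 342 (B) on the spike-in scale in WT vehicle and at 623.8 and 313.6 in WT DOX. The letters overlap fully between treatments, because A and B differed far more than vehicle and DOX. GAS5 therefore had a log2 fold change of -0.08 with a 95% interval of -0.95 to 0.78 (adjusted p = 1 by limma), which leaves room for a change of either sign. SNHG9 had the lowest estimate, -0.21 (interval -1.11 to 0.68), and SNHG3 the narrowest interval, -0.57 to 0.46. These intervals come from a fit that does not pair the letters, so they include the difference between A and B. With letters taken as pairs, the median half-width of the 10 intervals was 0.30 instead of 0.72, and 0 hosts were called.

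DOX in SE cells called 0 of 10 hosts, against 0.0523% of genes (6 of 11465, with 50 at an unadjusted p under 0.05). The median of the hosts, -0.23, was that of all genes, -0.24, within 0.02. Without SE DOX replicate A, which had the highest unnormalized spike-in sum (10040), the medians were -0.00285 for the hosts and -0.05 for all genes. The shift of all genes thus rests largely on that library. GAS5 was at 337.3 (A) and 282.2 (B) on the spike-in scale in SE vehicle and at 246.8 and 282.5 in SE DOX, so replicate A carries the difference. The estimates ran from -0.30 (SNHG1) to -0.02 (SNHG9), with limma adjusted p from 0.54 to 0.97. With equal library medians, which take out the shift of all genes, they ran from -0.07 (SNHG1) to 0.22 (SNHG9), and none was called.

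The difference of the DOX effects between WT and SE called 0 of 10 hosts, against 0.0785% of genes (9 of 11465, with 33 at an unadjusted p under 0.05). The members' median difference, WT minus SE, was 0.13, beside 0.21 over all genes. SNHG9 was the only host with a negative difference, -0.20 (SE 0.56, limma adjusted p = 0.84), and the highest was that of SNHG1, 0.21. The signs rest on the shift of all genes. With equal library medians all 10 differences were below 0, from -0.41 to -0.00082, with a median of -0.08, and none was called. Without SE DOX replicate A the medians were -0.08 for the hosts and 0.02 over all genes, so the shift rests largely on that library.

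**Figure D3:**
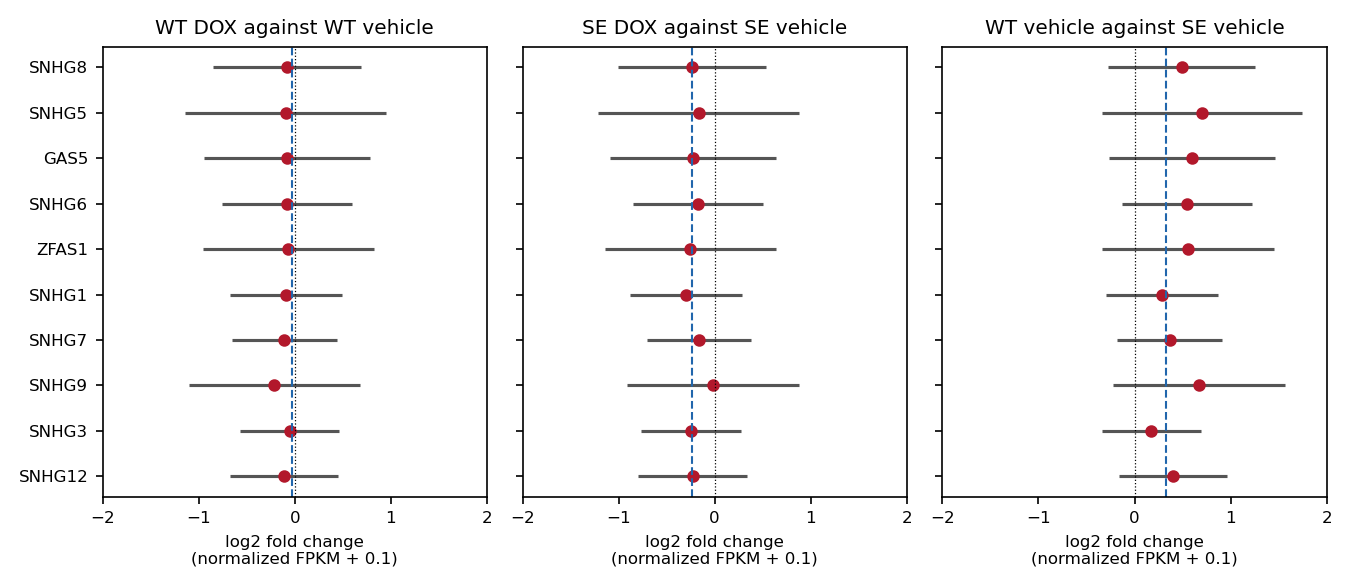
Log2 fold changes (normalized FPKM + 0.1) of the 10 hosts with 95% intervals from limma for 3 comparisons; the dashed blue line is the median of all genes tested and the dotted line is 0. Every interval crosses 0, and the estimates for WT against SE in vehicle lie to the right, from 0.18 to 0.70.

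Within a replicate letter the DOX ratios were small, and their direction went with the pair of libraries. On unnormalized FPKM the members' median log2 ratio of DOX over vehicle was -0.01 in WT replicate A (3 of 10 above 0), -0.11 in WT replicate B (0 of 10), -0.05 in SE replicate A (3 of 10) and 0.11 in SE replicate B (10 of 10). Over all genes, 46.8% to 51.5% were above 0 in each pair. The ribosomal protein mRNAs did the same, with 32, 3, 21 and 76 of 78 above 0 in those pairs. So in SE replicate B the hosts and nearly all ribosomal protein mRNAs were above their vehicle library, and in WT replicate B they were below it, with ribosomal protein medians of 0.06 and -0.07. The translation factor and other TOP mRNAs had 13, 6, 7 and 12 of 22 above 0, a smaller swing.

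SNHG9 was the host whose DOX ratio had 1 sign in both WT pairs and the other in both SE pairs by more than 0.1: -0.11 and -0.25 in WT, 0.24 and 0.21 in SE. SNHG7 had the same signs (-0.11, -0.04, 0.06 and 0.10). Among the ribosomal protein mRNAs, RPS28 (-0.09, -0.10, 0.09 and 0.23) had them too and RPL41 (0.02, -0.09, -0.10 and 0.10) did not. The pattern and its limit of 0.1 were picked after the values were seen. The share of all genes with it was not taken, so it is not shown to be particular to SNHG9. With the replicate block (letters taken as pairs), equal library medians and small RNA names left out, the SNHG9 difference was -0.41 (SE 0.05, limma adjusted p = 0.059), which did not pass the threshold. In the planned fit it was -0.20, and it ran from -0.67 to 0.28 there with 1 library left out.

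**Figure D4:**
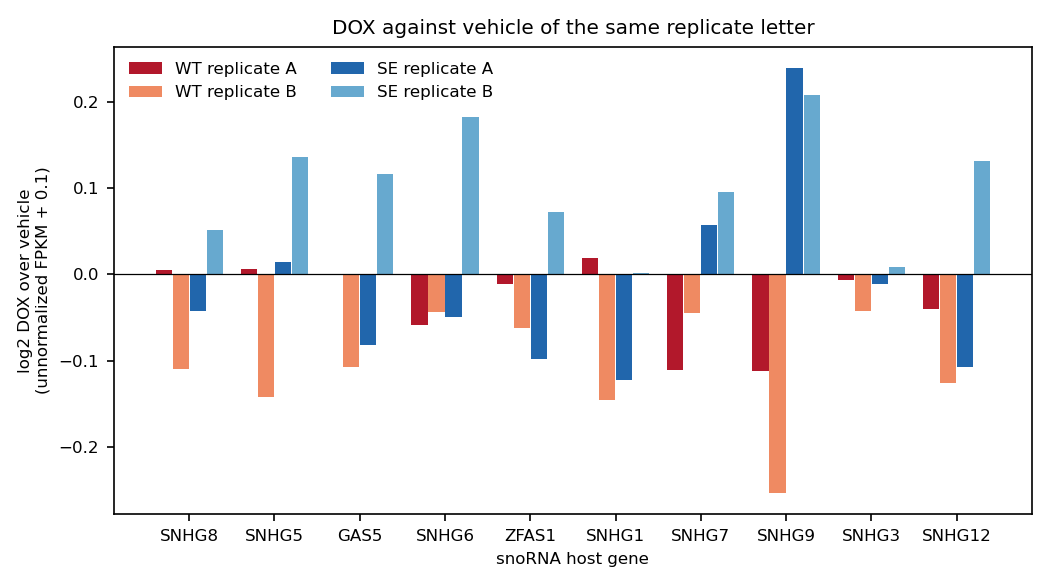
Log2 ratio of DOX over vehicle (unnormalized FPKM + 0.1) for each host within the 4 pairs of libraries that share a construct and a replicate letter. All 10 bars of SE replicate B are at or above 0 and all 10 of WT replicate B are below it; the SNHG9 bars are negative in both WT pairs and positive in both SE pairs.

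Of the 4 planned comparisons, WT against SE in vehicle had the highest median over the hosts. It called 0 of 10 hosts, against 0.183% of genes (21 of 11465, with 816 at an unadjusted p under 0.05). All 10 estimates were above 0, from 0.18 (SNHG3) to 0.70 (SNHG5, interval -0.34 to 1.75), with a median of 0.52 beside 0.32 over all genes, and limma adjusted p ran from 0.34 to 0.55. With equal library medians the estimates ran from -0.12 (SNHG3) to 0.41 (SNHG5), with a median of 0.22, and SNHG1 was at -0.01. SNHG5 was at 840.4 (A) and 368.7 (B) on the spike-in scale in WT vehicle and at 348 (A) and 335.6 (B) in SE vehicle. Only WT vehicle A stands apart there. Without it the members' median was 0.17, under that of all genes (0.22), and without WT vehicle B it was 0.83, beside 0.42. GAS5 followed the same pattern, with 641.4 and 342 in WT vehicle and 337.3 and 282.2 in SE vehicle.

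The rows named for the snoRNAs inside these hosts gave little that can be set beside their hosts. Of 34 snoRNAs listed for the 10 hosts, 32 were rows of the tables, 14 of these were at 0 in all 8 unnormalized libraries, among them SNORD44 and SNORD80 of GAS5, and 12 were listed above 0 in all. Of these 12, SNORA17 and SNORA43 of SNHG7 stood at 0.01, a floor, in 6 and 3 libraries, which leaves 10 above that floor in all 8. A poly(A) library is not made to capture snoRNAs, and reads of host introns can fall on such rows, so they are not shown to measure the mature snoRNA. Of 18 tested, 0 were called in any of the 4 planned comparisons, and WT replicate A against B called 3 higher and 2 lower, against 11.4% and 1.15% of all genes. SNORD76, in GAS5, had the highest mean and stood at 10550 and 11200 unnormalized FPKM in WT replicate A and at 8772 and 13200 in WT replicate B, so it did not follow GAS5. SNORD87, in SNHG6, stood at 2221 and 3537 in WT replicate A and 11740 and 10910 in WT replicate B, the reverse of its host. SNORD79, in GAS5, ran from 959.8 to 2397.

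These rows are also coarse. The values of SNORD26 and SNORD28, both in SNHG1, were whole multiples from 0 to 3 of a single step in each library, within 0.1%. The step was 979.9 to 1477 unnormalized FPKM. It was set from these same rows, as the smaller nonzero value or, where smaller, the difference between them. In SE DOX B and WT DOX B, where 1 of the rows was at 0, the match was therefore fixed in advance. If a step is 1 fragment, such a row holds at most 3 fragments, and its high FPKM comes from the very short length it is divided by.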

How the data were processed

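RNA was measured in 8 NALM6 libraries, 2 in each of 4 groups taken from the treatment and genotype labels. The authors deposited FPKM in 2 tables whose names mark 1 as raw and 1 as normalized. The submitters' processing notes name HISAT, the hg19 build and Cufflinks 2.0.0. How the normalization was done is not given in the sources read. The normalization moved the genes of a library nearly, but not exactly, by the same factor. In WT DOX A, EEF1A1 went from 3747 to 4593 and SNHG11 from 3.148 to 4.094. The lowest normalized value of a library was 0.07182 to 0.1012, although 6713 to 7754 rows per library were at 0 unnormalized. The number of sample columns not used was 0.

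Values were analysed as log2(normalized FPKM + 0.1), without spike-ins, for the 11465 genes whose mean was at least 1. This scale understates changes of low genes. limma 3.58.1 (R 4.3.3, empirical Bayes with a trend) was fitted to all genes and 4 group means, and p-values were adjusted by Benjamini-Hochberg (threshold 0.05). The fit was tested on simulated data. WT replicate A against B was fitted to 4 groups by construct and letter, added after values were seen. The letters are not stated to mark a shared batch, so the replicate block is an alternative. Other alternatives were scaling, pseudocount, filter, small RNA names left out, groups in the fit and each library left out.

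The members and gene lists were chosen with earlier results of these data known. Named are all 10 members, the 3 most abundant and all called members of each other list (of the ribosomal proteins, the called ones are given as a count), the 3 most abundant hosted snoRNA rows and the 5 genes most correlated with the members' mean. Other genes named were chosen after their values were seen, and 1 gene picked by the rule is not reported here. Promoter sequences are RefSeq's (GRCh38.p14), a build other than that of the files, so they were matched by symbol only. Genes with near-identical copies, overlapping or antisense genes and read-through transcripts have uncertain FPKM.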

Additional observations from a re-analysis of the deposited data

How the results depend on the processing

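In the 4 planned comparisons 0 of 10 hosts were called by limma under every alternative run. The median log2 fold change of the hosts ran from -0.41 to 0.23 for WT DOX against vehicle with 1 library left out, and from -0.20 to 0.38 for the difference of the DOX effects. Where a group then had 1 library, it was assumed to vary like the others. Leaving out 1 library unbalances the letters, so these ranges carry the difference between A and B and cannot decide the sign of a DOX effect. Within letters, on the spike-in scale, the hosts' medians were -0.04 (A) and -0.12 (B) for WT DOX against vehicle. For the difference of the DOX effects they were 0.36 (A) and -0.09 (B). The replicate block left the hosts' medians as they were (-0.09 for WT DOX, -0.23 for SE DOX) and called 181 genes against 8 in WT, 1663 against 6 in SE, 227 against 9 for the difference and 28 against 21 for WT against SE. Same-letter deviations correlated at 0.086 in WT and 0.12 in SE, with 2 pairs each, over all 11465 genes tested, 302 of them with small RNA names. These values do not show that the letters are unpaired. Over the hosts, the median log2 ratio of WT replicate A over B on the spike-in scale was 0.63 in vehicle and 0.65 in DOX. With the block, equal library medians and small RNA names left out, the calls were 2, 0, 0 and 18 genes. Leaving out small RNA names alone gave 0, 1, 1 and 55 genes, and fitting only the 2 groups compared gave 138 genes for SE DOX. With 1 library left out the counts ran from 19 to 27, 12 to 25, 17 to 36 and 22 to 46 genes.

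For WT replicate A against B, the hosts' median of 0.64 was 0.41 in the unnormalized table, 0.42 (0.425) with equal library medians, and 0.43 (0.426) when small RNA names were also left out, with or without a treatment block; these scalings remove the shift of all genes (0.22). SNHG3 turned from 0.04 to -0.19 in the unnormalized table, -0.17 (-0.1713) with equal medians and -0.17 (-0.1704) in the other 2. With 1 library left out 3 to 4 hosts were called, and the median ran from 0.59 to 0.69. Called genes numbered 1437, from 424 (without WT DOX replicate B) to 7599 (only the WT libraries fitted, where SNHG1 and SNHG7 were also called). With no filter on low values 4 hosts were called. Depth is unknown, so counting error cannot be given for any value.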
